A study of Mus musculus with 2 samples.

Results

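The interferon-inducible GTPases examined here were 9 genes chosen by symbol among the 35522 features of the expression tables: the guanylate-binding protein genes Gbp2, Gbp3, Gbp5, Gbp6 and Gbp7 and the immunity-related GTPase genes Irgm1, Irgm2, Igtp and Iigp1. RNA came from mouse neutrophils sorted from bone marrow as CD11b positive, high for Ly-6G and low or negative for Ly-6C. Both cultures received complete RPMI-1640 with 10 ng/ml GM-CSF, a myeloid growth factor, so no library shows cells without it. One culture was given PBS for 3 days and the other 20 µg/ml tumor exosomes for 3 days. The exosomes are small vesicles that had been collected by ultracentrifugation from stem cell medium in which the murine colon cancer line CT26 was grown to enrich sphere-derived cancer stem cells. Each group held 1 library, so neither a spread between replicates nor a test of the treatment can be given. The strain, sex, age and number of the mice behind these 2 libraries were not given in the labels, and a medium or vesicle control from other cells was not analysed here.

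Guanylate-binding proteins (GBPs) and immunity-related GTPases (IRGs) are GTP-hydrolysing proteins that cells make in response to interferons. They assemble on the membranes of vacuoles that hold parasites or bacteria, and GBPs also act upstream of inflammasomes, the complexes that activate inflammatory caspases. Among the IRGs, Irgm1, Irgm2 and Igtp (also called Irgm3) are regulators that sit on the host's own membranes and hold effector IRGs such as Iigp1 in an inactive state there. Transcription follows 2 known routes. Interferon-gamma acts mainly through GAS elements, and type I interferon acts mainly through ISRE elements, which are bound by a complex that holds IRF9.

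The regions around the RefSeq starts of the genes are shown because they hold letters of the ISRE or of both elements. From the RefSeq promoter table (build GRCm38.p6, 250 bases before to 50 after the start of a transcript), windows were used for 7 of the 9 genes. Gbp6 had none, and Iigp1 was left out of this step by choice and is not reported here. A GAS match was the letters TTCNNNGAA, and a match to the core of an ISRE was GAAA, any 2 bases and GAAA, on either strand. The ISRE core was found in all 7 genes whose windows were used, against 3.44% of the 32851 windows of the table. The GAS letters were found in 4 genes (Gbp5, Gbp7, Igtp and Irgm2), against 8.30% of windows, and both motifs stood together in 0.454% of windows. No GAS match overlapped an ISRE match in these genes. The sites below are 30 bases long and read along the gene's own strand. Capitals mark the ISRE core, and in Igtp and Irgm2 also the GAS letters just upstream of it.
Gbp5: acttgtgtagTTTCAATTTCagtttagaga
Gbp7: gtgtgtgcagTTTCAGTTTCagttctccat
Gbp3: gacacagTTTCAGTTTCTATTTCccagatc
Gbp2: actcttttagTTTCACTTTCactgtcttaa
Irgm1: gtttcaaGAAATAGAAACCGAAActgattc
Igtp: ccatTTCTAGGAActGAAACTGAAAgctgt
Irgm2: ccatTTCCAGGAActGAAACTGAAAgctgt
On the plus strand these sites were chr3:142496759-142496788 (Gbp5), chr3:142530273-142530302 (Gbp7), chr3:142559992-142560021 (Gbp3), chr3:142620594-142620623 (Gbp2), chr11:58199507-58199536 (Igtp) and chr11:58214898-58214927 (Irgm2). The Irgm1 site was chr11:48871428-48871457 on the minus strand. All 7 sites were chosen for display after the values were seen. Not all of them lie upstream of the annotated gene. The sites of Gbp5, Irgm1 and Irgm2 lie inside the GENCODE genes, and the Irgm1 window begins in an annotated exon. The Gbp2 core lies just after the GENCODE start of that gene (chr3:142620602).

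Igtp and Irgm2 carried the same arrangement, with 2 bases between the GAS and the ISRE letters. The longest stretch common to their windows was 61 bases. Gbp3 and Irgm1 had 2 overlapping cores each. A second window listed for Gbp3, at a later start, had no match. The GAS matches of the Gbp genes were placed differently, at -245 and -52 bases from the start in Gbp5 and at -106 and -87 in Gbp7. Longer stretches were planned for the genes with the 2 highest and the 2 lowest log2 ratios among those whose windows were used. Irgm1 and Gbp2 were left out because an annotated exon begins after 0 and 189 bases of their windows. That left the neighbouring genes Gbp7 and Gbp5, which had the highest and the lowest log2 ratio. Capitals mark every GAS and ISRE match.
Gbp7: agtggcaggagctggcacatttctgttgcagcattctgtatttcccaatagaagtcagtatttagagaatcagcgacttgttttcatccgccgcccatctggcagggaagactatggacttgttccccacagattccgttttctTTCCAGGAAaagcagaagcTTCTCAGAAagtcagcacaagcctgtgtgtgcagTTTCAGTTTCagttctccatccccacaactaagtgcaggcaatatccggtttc
Gbp5: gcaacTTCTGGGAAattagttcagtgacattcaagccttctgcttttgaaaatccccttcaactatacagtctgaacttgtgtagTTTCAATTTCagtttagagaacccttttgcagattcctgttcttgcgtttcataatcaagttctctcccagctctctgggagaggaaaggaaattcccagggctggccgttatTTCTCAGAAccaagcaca
These stretches were chr3:142530086-142530335 (Gbp7, 250 bases) and chr3:142496684-142496899 (Gbp5, 216 bases), both on the plus strand. The Gbp7 stretch lies in front of the annotated gene. The Gbp5 stretch lies before the RefSeq start and an annotated exon that begins there, but inside the GENCODE gene, which has a further start upstream. A match is a description of letters and not of a bound site.

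Levels are given in RPKM, the reads on a gene per kilobase of its exons, scaled to the total of mapped reads. Read totals were not in the tables. They were estimated from the smallest values, taken as single reads, at 66000000 for PBS and 79100000 for exosome (both rounded). Intervals in brackets are 95% intervals from these estimated reads. They cover counting error only and say nothing of how cultures vary. A gene was kept at 0.25 RPKM or more in both libraries, which 9698 features reached, and was called up at a ratio of at least 2 or down at 0.5 or less. Under this rule 31.5% of kept features were up and 5.62% were down, with a median log2 ratio of 0.53 (exosome over PBS) over all of them. The most abundant 2 features took 21.2% of all RPKM in PBS and 8.31% in exosome, and RPKM shares 1 total among all genes. Counts of calls are therefore read against these percentages, and the counts of calls are also given with the median of all genes set to 0.

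The labelled cell type was checked against its markers. All 12 neutrophil markers were kept, with a summed level of 83748 RPKM in PBS and 29866 in exosome, and 10 of 12 were down. S100a8 and S100a9 made up most of both sums. Of 12 macrophage and monocyte markers listed, 7 were kept, 4 up and 1 down, and their sum was 349 RPKM in PBS and 500 in exosome. Csf1r was at 58.1 and 153 RPKM, Emr1 (the F4/80 antigen) at 20.9 and 152, and C1qc at 0.27 and 3.79. Ly6c2, the most abundant of them in PBS, went the other way, at 184 and 37.1 RPKM. B cell markers summed to 110 and 68.0 RPKM. T and NK cell markers summed to 59.0 and 8.95, with Trac and Gzma listed at 0 in both. Most of that sum was Cd3d, at 56.4 and 7.02 RPKM, while Cd3e was at 0.06 and 0.04. Dendritic cell markers summed to 13.8 and 6.83, eosinophil, basophil and mast cell markers to 8.70 and 4.92, and erythroid and platelet markers to 26.3 and 26.4. Most of the last sum was Pf4, at 19.1 and 23.3 RPKM. Epithelial and tumor cell markers summed to 0.61 and 0.214, with Krt8 and Krt20 listed at 0. In such bulk RNA fewer cells of a type and less RNA per cell cannot be told apart, and the part of these marker shifts in the GTPase values below was not tested.

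Of the 9 GTPase genes 5 were called up, 0 were called down, 2 stayed within 2 fold and 2 were below the level filter. The 5 were Irgm1, Igtp, Irgm2, Gbp7 and Gbp3, with ratios from 2.21 to 2.82. Gbp2 and Gbp5 were at ratios of 1.03 and 0.846. The median log2 ratio of the 7 genes kept was 1.15. These calls depended on the scaling between the libraries, since none of the 5 remained up once the median of all genes was set to 0, where 16.8% of kept features were up. Summed over all 9 genes, the level was 30.6 RPKM in PBS and 70.2 in exosome.

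**Figure D1:**
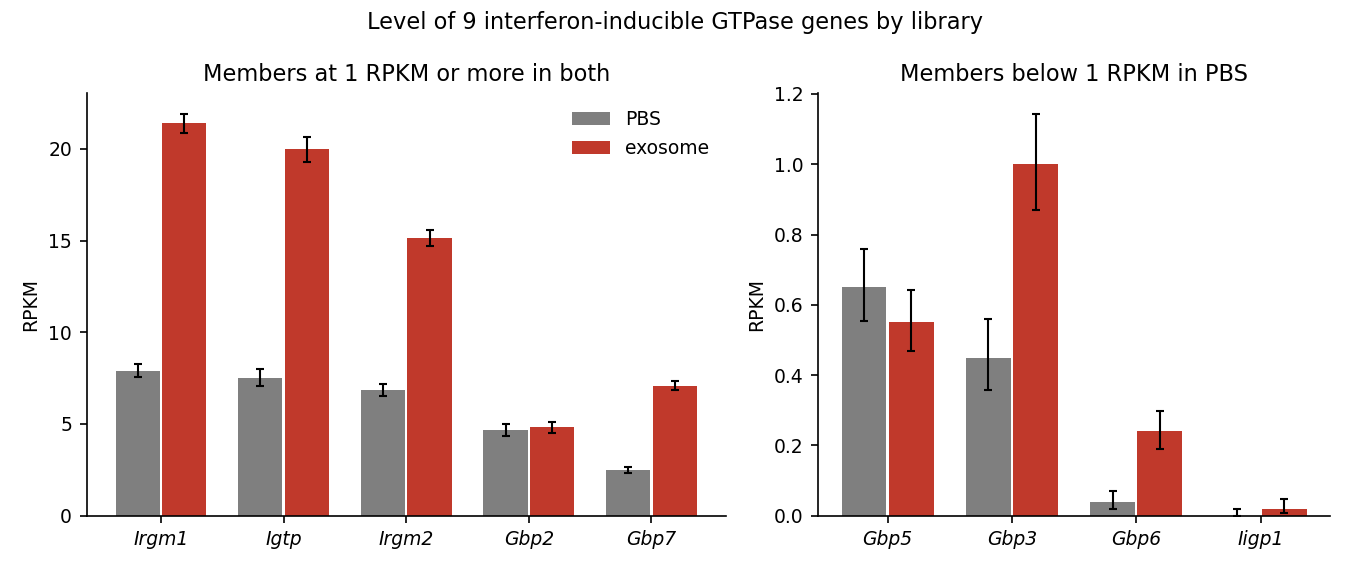
RPKM of each of the 9 genes in the PBS library (grey) and the exosome library (red), on separate scales for the 5 genes at 1 RPKM or more in both and the 4 below 1 RPKM in PBS. Each bar is 1 library and error bars are 95% counting intervals. The bars of Irgm1, Igtp, Irgm2, Gbp7 and Gbp3 stand apart between the libraries, while those of Gbp2 and Gbp5 overlap.

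The 3 regulatory IRG genes had the highest levels of the 9 in both libraries. Irgm1, whose protein resides on Golgi and endolysosomal membranes, was at 7.91 RPKM in PBS and 21.4 in exosome, a log2 ratio of 1.44 [1.36, 1.51]. Igtp, whose protein is found on the endoplasmic reticulum, was at 7.53 and 19.97 RPKM, a log2 ratio of 1.41 [1.30, 1.51]. Irgm2, the remaining regulator, was at 6.86 and 15.1 RPKM, a log2 ratio of 1.14 [1.06, 1.23]. In PBS these 3 levels rested on 1004 to 1999 estimated reads a gene. The ratios were 2.71 for Irgm1, 2.65 for Igtp and 2.21 for Irgm2. They moved together but not equally. Within a library, where a single factor between the libraries drops out, Igtp was 0.952 of Irgm1 in PBS and 0.933 in exosome. The difference of log2 ratios was -0.03 [-0.15, 0.10]. Irgm2 was 0.867 of Irgm1 in PBS and 0.707 in exosome, a difference of -0.29 [-0.40, -0.18]. Together the 3 genes rose from 22.3 to 56.5 RPKM, a ratio of 2.53, and went from 72.8% to 80.5% of the summed level of the 9 genes.

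Igtp and Irgm2 overlap on the same strand in the annotation, and 12.3% of the 50-base stretches of Igtp transcripts also occur in Irgm2 transcripts. For Irgm2, 7.30% of stretches occur in another gene. How reads that match several genes were assigned is not given in the sources used here, so a part of the reads of this pair could sit on either gene. Irgm1 had no such stretch in another gene.

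The 5 GBP genes went in different directions. Gbp7, a GBP linked to the delivery of oxidase and autophagy components to vacuoles, was at 2.51 RPKM in PBS and 7.09 in exosome, a log2 ratio of 1.5 [1.39, 1.61]. This was the highest log2 ratio among the 7 genes kept. Gbp3, its neighbour on chromosome 3, was at 0.45 and 1.0 RPKM, a log2 ratio of 1.15 [0.77, 1.54], on 79.6 and 212 estimated reads. It was the least well measured of the 5 genes called up, and after adding a pseudocount of 1 RPKM its log2 ratio was 0.46. Of the 50-base stretches of Gbp7, 12.8% occur in other genes, 10.6% in Gm43802. For Gbp3, 4.79% of stretches occur in Gbp7.

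Gbp2, which gathers on the vacuole of Toxoplasma, was at 4.67 RPKM in PBS and 4.82 in exosome. Its log2 ratio of 0.05 [-0.09, 0.18] was higher than that of 28.6% of kept genes. Gbp5, known for its link to the NLRP3 inflammasome, was at 0.65 and 0.55 RPKM, a log2 ratio of -0.24 [-0.56, 0.08], on 161 and 163 estimated reads. For both genes the counting intervals of the libraries overlapped and included no difference. After the median of all genes was set to 0 their log2 ratios were -0.48 and -0.77, so the sign for Gbp2 depends on the scaling, and neither passed the ratio of 0.5. Summed over the 5 GBP genes, the level was 8.32 RPKM in PBS and 13.7 in exosome, a ratio of 1.65, and their share of the 9 genes went from 27.2% to 19.5%.

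The gap between the GTPase genes that were up and those that were not does not depend on a single factor between the libraries. It can be read within each. The genes were split by these same ratios, so a gap between such pairs was fixed in advance. Its size is described here, and its interval is no added support for the split. Irgm1 was 1.69 times Gbp2 in PBS and 4.44 times in exosome, a difference of log2 ratios of 1.39 [1.24, 1.54]. Gbp7 was 0.538 of Gbp2 in PBS and 1.47 times Gbp2 in exosome, a difference of 1.45 [1.28, 1.63]. Gbp3 was 0.692 of Gbp5 in PBS and 1.82 times Gbp5 in exosome, a difference of 1.39 [0.91, 1.88]. The last 2 pairs changed places. By contrast Gbp7 against Irgm1 was 0.317 in PBS and 0.331 in exosome, a difference of 0.06 [-0.07, 0.19]. With 1 library a group, these intervals do not say whether other cultures would show the same gaps. A scaling that varies with level does not drop out within a library. After centring within 10 bins of level, the log2 ratio was 1.07 for Irgm1, 0.79 for Gbp7 and 0.58 for Irgm2.

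In PBS the order of levels was Irgm1, Igtp, Irgm2, Gbp2, Gbp7, Gbp5, Gbp3, Gbp6 and Iigp1. Counting intervals overlapped there for Irgm1 and Igtp, for Igtp and Irgm2, and for Gbp5 and Gbp3. In exosome the order was Irgm1, Igtp, Irgm2, Gbp7, Gbp2, Gbp3, Gbp5, Gbp6 and Iigp1, with no overlap between neighbours.

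Gbp6 and Iigp1 were close to absent. Gbp6 was at 0.04 RPKM in PBS and 0.24 in exosome, on 11.2 and 80.6 estimated reads, so it missed the level filter in both libraries. Its log2 ratio was 2.58 [1.68, 3.63], and the rounding of the deposited values alone allows a ratio from 5.22 to 7.0. Of its 50-base stretches 59.7% occur in other genes. Gm43302 holds 51.5% of them and Gbp10, which was itself at 0.06 and 0.09 RPKM, holds 43.8%. Iigp1, the effector IRG that gathers on parasite vacuoles, was listed at 0 in PBS and at 0.02 RPKM in exosome, or 4.94 estimated reads. A count of 0 in PBS allows up to 3 reads, or 0.0146 RPKM, so no fold is given. The regulators were thus measured at levels from 6.86 RPKM upward while this effector stayed at or below 0.02 RPKM.

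To set the GTPase genes beside genes of like abundance, the 5765 features whose geometric mean level over both libraries lay between 0.598 and 13.0 RPKM, the range of the 7 genes kept, were taken. In that range 42.1% of features were up and 4.75% were down, with a median log2 ratio of 0.79. Of the 7 genes 5 lay above this median and 5 above the median of all kept features. Irgm1 had a higher log2 ratio than 81.2% of all kept features, Gbp7 than 82.5%, Igtp than 80.6%, Gbp3 than 73.6% and Irgm2 than 73.4%. Gbp5 exceeded 19.2%. The 5 genes above both medians were those called up, so their place above them follows from the call. None of the 5 was at the extreme of the kept features.

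**Figure D2:**
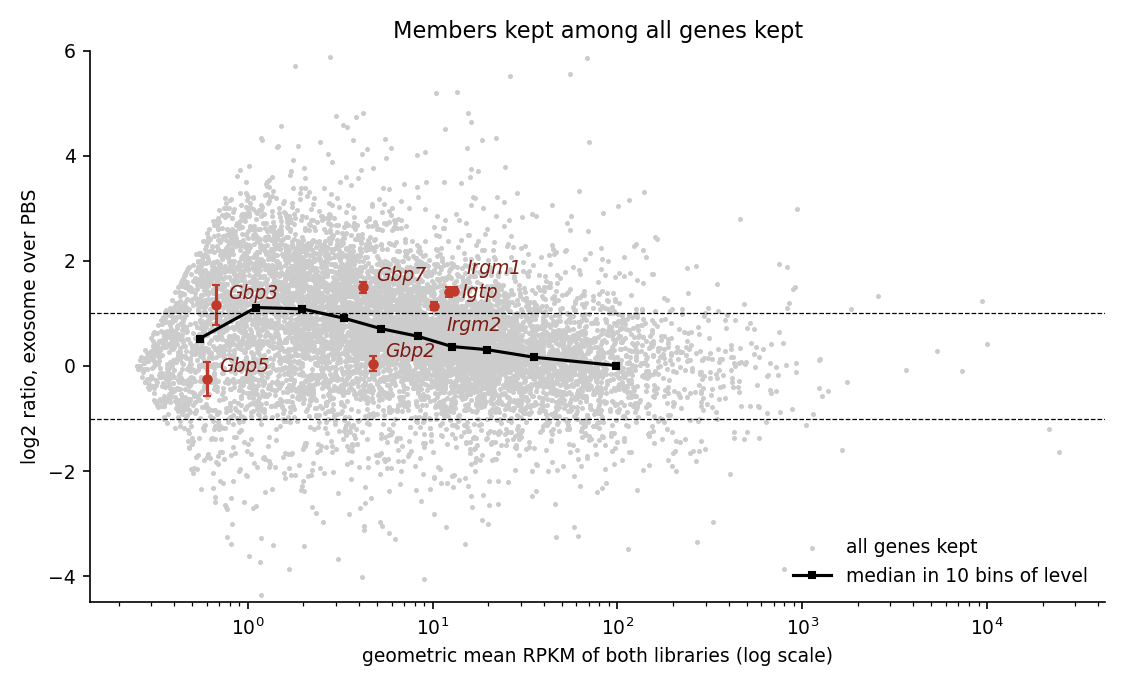
Log2 ratio of exosome over PBS against the geometric mean RPKM of both libraries (log axis) for all 9698 kept features (grey) and the 7 GTPase genes kept (red, bars are 95% counting intervals). The black line joins the medians within 10 bins of level and dashed lines mark a ratio of 2 in each direction. The line rises to its highest value near 1 RPKM and falls from there, and Gbp3, Gbp7, Irgm1, Igtp and Irgm2 lie above the median of their bin while Gbp2 and Gbp5 lie below it.

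The median log2 ratio was 0.52 in the lowest of 10 bins of level, 1.11 in the next and 0.01 in the highest, so recentring within 10 bins of level was also tried. After it 13.3% of kept features were up, and so were Irgm1 at 1.07 and Igtp at 1.04, while Gbp7 was at 0.79, Gbp3 at 0.63 and Irgm2 at 0.58. Setting the overall median to 0 left Gbp7 at 0.97, Irgm1 at 0.91, Igtp at 0.88, Gbp3 at 0.63 and Irgm2 at 0.62. All 5 stayed above 0 in each scaling shown, and Gbp5 stayed below 0. With the overall median set to 0 these signs were fixed in advance. The same 0.53, less than the log2 ratio of 1 needed for a call, was taken from every gene.

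**Figure D3:**
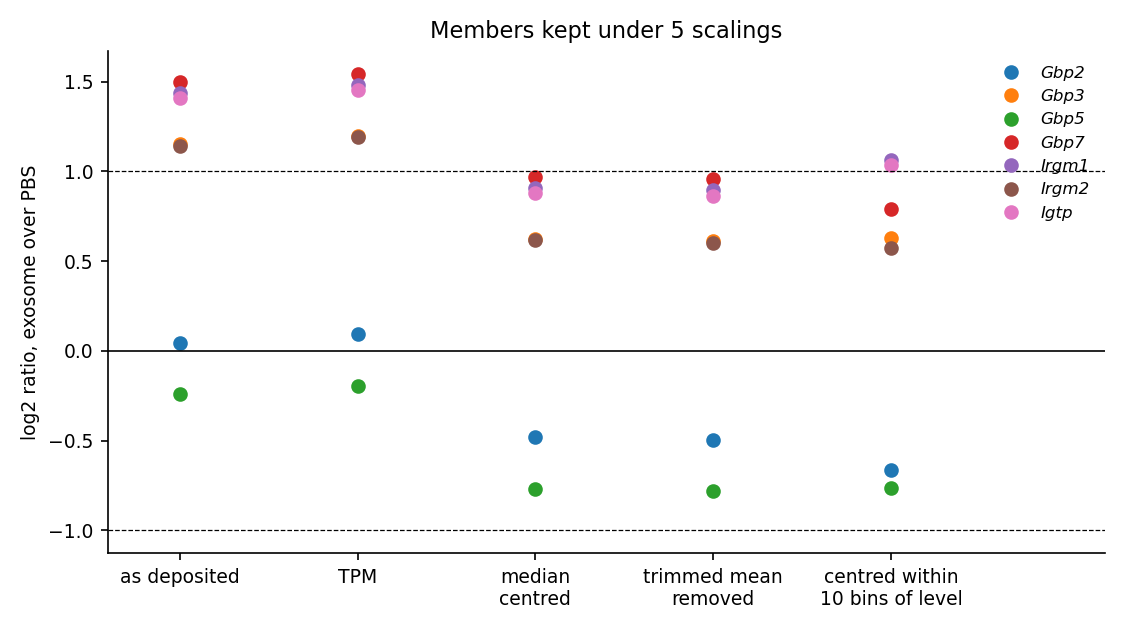
Log2 ratio of exosome over PBS of the 7 GTPase genes kept, under 5 scalings of the libraries along the horizontal axis, 1 point a gene, with dashed lines at a ratio of 2 in each direction. As deposited and as TPM 5 genes lie above the upper line, after median centring or removal of a trimmed mean none does, and after centring within 10 bins of level Irgm1 and Igtp do.

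The genes lie in clusters, in which some neighbours had like ratios and others did not (GENCODE M21, GRCm38). On chromosome 3, plus strand, the order is Gbp5 (chr3:142493978-142522344), Gbp7 (chr3:142530342-142550149), Gbp3 (chr3:142560026-142573209), Gbp1 (Gbp2b in RefSeq, chr3:142594847-142619179) and Gbp2 (chr3:142620602-142638008). Gbp7 and Gbp3 were up, and Gbp5, Gbp1 and Gbp2 on either side of them were not. Gbp1 was at 4.75 RPKM in PBS and 4.43 in exosome, a log2 ratio of -0.10, close to Gbp2 beside it. The ratio of Gbp2 to Gbp1 was 0.983 in PBS and 1.09 in exosome, a difference of log2 ratios of 0.15 [-0.04, 0.34]. Each of Gbp5, Gbp7, Gbp1 and Gbp2 had the ISRE core, so that match alone did not separate the genes that were up from the others, and GAS letters stood in the RefSeq windows of both Gbp7 and Gbp5.

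On chromosome 5, minus strand, Gbp6 (chr5:105270702-105293698) lies with Gbp4, Gbp8, Gbp9, Gbp10 and Gbp11. Gbp9 was the only one of these others called up, at 3.01 RPKM in PBS and 11.6 in exosome, a log2 ratio of 1.95. Gbp4 was at 0.88 and 0.70 RPKM, a log2 ratio of -0.33. Within the libraries Gbp9 was 3.42 times Gbp4 in PBS and 16.6 times in exosome, although Gbp4, Gbp8 and Gbp9 overlap on the same strand in the annotation. Gbp8 (0.08 and 0.11 RPKM), Gbp10 and Gbp11 (0.11 and 0.03) were below the filter. Of the 3 other Gbp genes kept, 1 was up and 0 down, with a median log2 ratio of -0.10, and the counts were the same with the overall median set to 0.

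On chromosome 11 Irgm1 (chr11:48861968-48871683, minus strand) opens a block of IRG genes that ends with Ifi47 (Irgd, chr11:49076587-49096974, plus strand). Ifi47 was at 0.25 RPKM in PBS, on the filter itself, and at 1.96 in exosome, a log2 ratio of 2.97 [2.42, 3.57]. This was above each of the 9 genes that had a ratio, although the interval of Gbp6 [1.68, 3.63] covers it. The window of Ifi47 held neither motif. The gene 9930111J21Rik1 between them was at 13.9 and 22.8 RPKM, a log2 ratio of 0.72. Of its 50-base stretches 79.3% occur in other genes, 76.2% in 9930111J21Rik2, which was listed at 0.07 and 0.21 RPKM. Tgtp1 (0.04 and 0.08 RPKM) and Tgtp2, near-identical genes with 91.4% and 90.6% of their stretches in another gene, were near 0. The other block holds Gm12250 (Irgb10, an IRG that acts with GBPs on bacteria), Igtp (chr11:58199556-58207591) and Irgm2 (chr11:58199618-58222782), all on the plus strand and all up. Gm12250 was at 0.74 and 2.73 RPKM, a log2 ratio of 1.88. Iigp1 (chr18:60376027-60392634, plus strand) lies apart with Gm4951 and F830016B08Rik, which were at 0 in PBS too. Of the 4 other IRG genes kept, 2 were up and 0 down, with a median log2 ratio of 1.30 and the same counts with the overall median set to 0. Centring within 10 bins of level gave 1 up and 1 down, and a filter of 1 RPKM left 0 up. Irgq was at 1.69 and 1.66 RPKM. The larger GTPases Mx1 and Mx2 were listed at 0 in both libraries, and Gvin1 was at 0.41 and 0.63 RPKM.

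**Figure D4:**
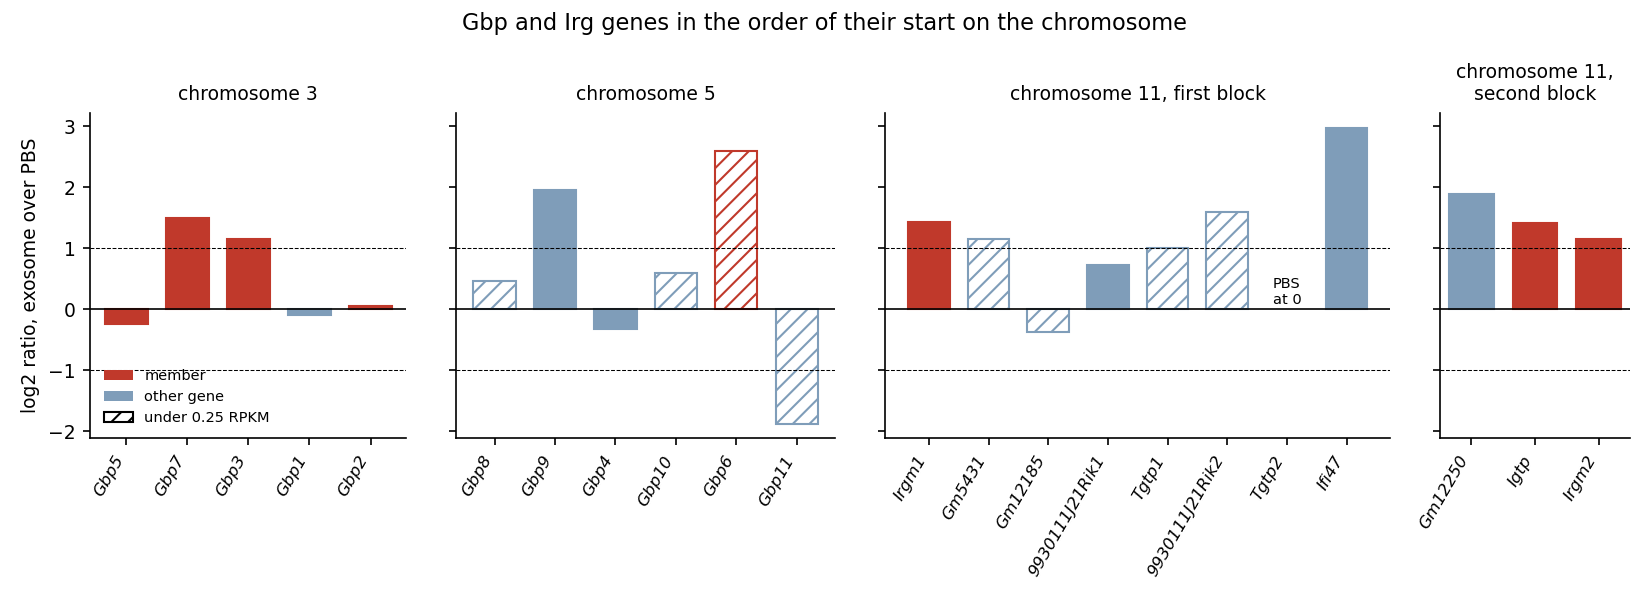
Log2 ratio of exosome over PBS for the Gbp and Irg genes of chromosomes 3, 5 and 11 in the order of their start, for the 9 genes (red) and other family genes (blue), with hatched bars for genes under 0.25 RPKM in a library. Dashed lines mark a ratio of 2. Gbp7 and Gbp3 are raised between Gbp5 and Gbp1 on chromosome 3, and Gm12250, Igtp and Irgm2 are raised side by side on chromosome 11.

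The genes that lead to these GTPases were taken by role, starting with the ligands. None of 16 interferon genes listed was kept and 11 were at 0 in both libraries. Ifng was at 0.19 RPKM in PBS and 0.12 in exosome, Ifnb1 at 0.04 and 0.03, and Ifnab at 0.05 and 0.15. RNA was taken at 1 time point only. All 8 receptor chains and kinases were kept, 2 up and 0 down, with a median log2 ratio of 0.43. Ifngr1, the ligand-binding chain for interferon-gamma, was at 47.6 and 114 RPKM (log2 ratio 1.26), and Tyk2, a kinase of the type I receptor, at 6.22 and 12.6 (1.02). Ifnar2 was at 116 and 102 RPKM and Jak1 at 146 and 111, log2 ratios of -0.18 and -0.39. Neither of the 2 calls held after the overall median was set to 0.

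Of 12 STAT and IRF family factors kept, 3 were up and 0 down, with a median log2 ratio of 0.26, and with the overall median set to 0 these were 2 up and 1 down. Irf7, the amplifier of type I interferon, was at 22.6 RPKM in PBS and 136 in exosome (log2 ratio 2.59). Irf9, the DNA-binding part of the complex at ISRE elements, was at 18.5 and 44.1 (1.25), and Batf, a partner of IRF factors, was at 9.61 and 33.1 (1.78). Stat2, another part of that complex, was at 6.22 and 9.81 RPKM, a log2 ratio of 0.66 that did not reach the ratio of 2. Irf1, a factor that interferon-gamma induces through a GAS element and that serves Gbp and Irg genes, was at 19.6 and 15.04 RPKM, a log2 ratio of -0.38. Among 10 brakes on the signal kept, 3 were up and 0 down, with a median of 0.80, and 2 up and 1 down with the overall median set to 0. Usp18, which blocks the type I receptor, was at 5.33 and 36.4 RPKM (2.77), Socs3 at 22.4 and 73.3 (1.71) and Ptpn11 at 11.1 and 22.3 (1.0), while Socs1, a brake on interferon-gamma signalling, was at 3.09 and 3.86 (0.32).

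The GTPase genes can be set beside 2 lists of other target genes. Of 29 type I interferon-response genes kept, 25 were up and 0 down, with a median log2 ratio of 2.22 against 1.15 for the 7 GTPase genes, and all 29 were above 0. After the overall median was set to 0, 22 were still up. Zbp1, a sensor of nucleic acids, was at 0.34 RPKM in PBS and 6.11 in exosome (log2 ratio 4.17), the antiviral enzyme gene Oas1g at 1.15 and 13.7 (3.58), and Bst2, which tethers budding virus, at 2.54 and 26.8 (3.40). Ifi27l2a was at 38.7 and 344 RPKM (3.16), Oasl2 at 2.28 and 20.1 (3.14) and Oas1a at 6.60 and 53.1 (3.01). These genes were named because their log2 ratios were the highest of those kept in the list. None of the 7 GTPase genes kept reached these values. The lowest log2 ratio in the type I list was 0.26, so the list and the GTPase genes overlapped.

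Of 13 genes kept that are induced mainly by interferon-gamma, 2 were up and 0 down, 9 were below 0 and the median log2 ratio was -0.38. With the overall median set to 0, 1 was up and 2 down, and with centring within 10 bins of level 1 was up and 4 down. The 2 were Cd274, which encodes PD-L1, at 9.50 and 26.7 RPKM (1.49), and Wars, a tRNA synthetase gene, at 2.39 and 7.61 (1.67). Both were picked after their values were seen, as were all genes named below because a count of calls was 5 or fewer. Below the level filter, members of this list differed. The chemokine gene Cxcl9 was listed at 0 in both libraries, while Nos2, the inducible nitric oxide synthase gene, was at 0.09 RPKM in PBS and 1.56 in exosome and the Fc receptor gene Fcgr1, also on the macrophage and monocyte list, at 0.20 and 1.19. With all genes above 0 in both libraries kept, 4 of the list were up. All 7 GTPase genes kept lay between the medians of the 2 lists, Gbp2 and Gbp5 nearer to the lower and the other 5 nearer to the upper one. The lower median rests largely on 1 group, since most genes kept in the interferon-gamma list were genes of the MHC class II pathway. These were Ciita, Cd74, H2-Aa, H2-Ab1, H2-Eb1, H2-DMa and H2-DMb1, named after their values were seen. All of them were below 0, from -0.59 for Cd74 to -0.01 for Ciita, whose counting interval of [-0.21, 0.18] included no difference. The B cell markers kept were below 0 too, with a median log2 ratio of -0.68. Their part in the class II values was not tested. The 2 target lists share Irf7 and Usp18, and Irf1 and Socs1, with those of factors and brakes. In antigen processing, another group that interferons induce, 3 of 13 genes kept were up and 0 down, with a median of 0.55, against 1 up and 2 down with the overall median set to 0. As deposited the 3 were Erap1 (1.06 and 6.96 RPKM, log2 ratio 2.72), Psme2 (1.27) and B2m (1.19).

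**Figure D5:**
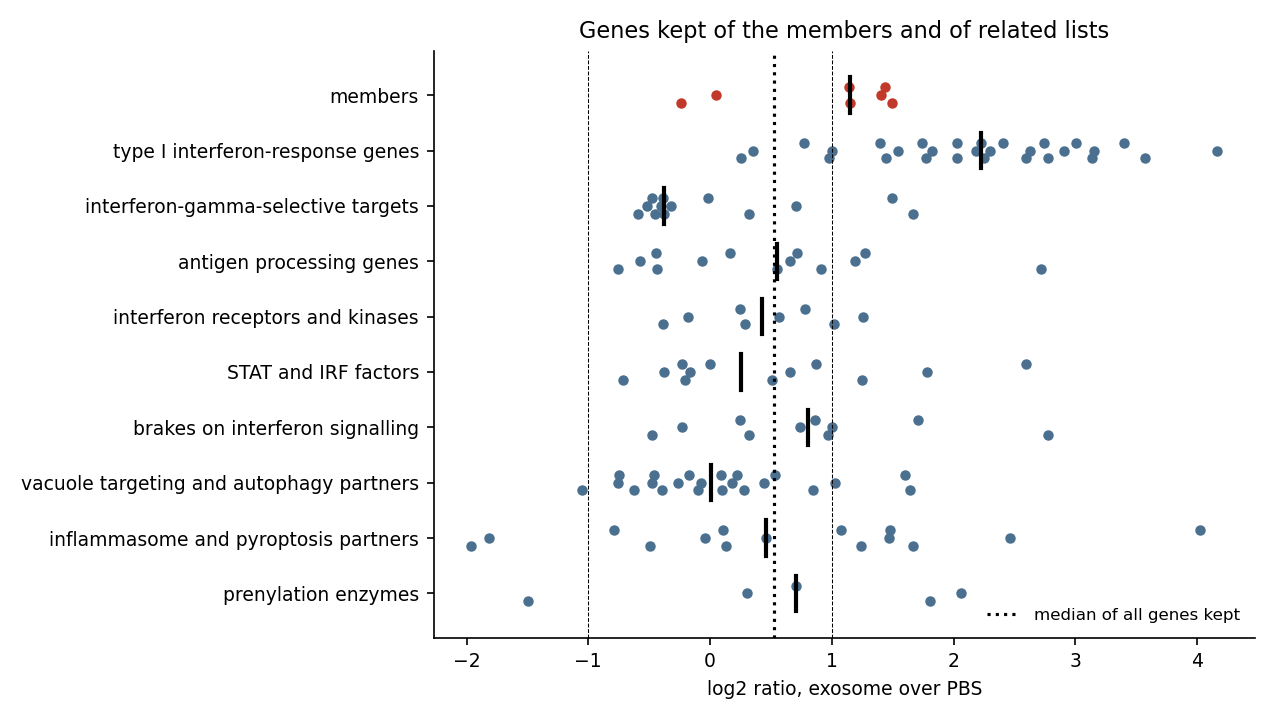
Log2 ratio of exosome over PBS (horizontal axis) of each gene kept in the GTPase list (members, red) and in 9 related lists (blue), 1 point a gene. Short black bars are list medians, the dotted line is the median of all kept features at 0.53 and dashed lines mark a ratio of 2. The type I list lies furthest right with its median at 2.22, the GTPase median is at 1.15 and that of the interferon-gamma-selective list is at -0.38.

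Last, genes whose proteins work with the GTPases were taken. IRG and GBP proteins reach vacuoles with the help of the autophagy conjugation genes, and of 22 such vacuole and autophagy genes kept, 3 were up and 1 down, with a median log2 ratio of 0.01. With the overall median set to 0 the balance turned, to 2 up and 5 down. Atg5 was at 16.6 RPKM in PBS and 33.8 in exosome (1.02), Atg7 at 51.6 and 30.6 (-0.75) and Gabarapl2 at 46.1 and 49.5 (0.10). The others past the ratio of 2 were Trim21 (1.65) and Rnf213 (1.60), both ubiquitin ligases, and the autophagy receptor gene Optn (-1.05). Several GBPs, Gbp2 and Gbp5 among them, are anchored by a lipid added at the C terminus. Of 5 enzyme genes of that pathway, Rce1 was at 1.12 and 4.68 RPKM (2.06), Pggt1b at 1.45 and 5.06 (1.80) and Fntb at 1.69 and 0.60 (-1.49). These 3 calls were the same in number with the overall median set to 0, but centring within 10 bins of level left 0 up and 1 down.

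GBPs help release bacterial ligands to caspase-11 (Casp4) and Aim2. Of 15 inflammasome and pyroptosis genes kept, 7 were up and 2 down, with a median log2 ratio of 0.46. Casp4 was at 8.67 RPKM in PBS and 27.6 in exosome (1.67), Casp1 at 7.26 and 17.1 (1.24), Nlrc4 at 0.67 and 10.9 (4.03) and Mefv, which encodes pyrin, at 11.3 and 62.7 (2.47). Aim2 was at 44.4 and 25.7 RPKM (-0.79) and the pore gene Gsdmd at 58.9 and 81.1 (0.46). Nlrp1a (-1.82) and Nlrp1b (-1.96) were down. After the overall median was set to 0, 3 of the 15 were up and 4 down.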

How the data were processed

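Poly(A)-selected TruSeq libraries, 1 for PBS and 1 for exosome, were sequenced on an Illumina HiSeq instrument. The authors trimmed reads at a Phred score of 20 and computed RPKM in CLC Genomics Workbench 8.0. The deposited RPKM values, mostly rounded to 0.01, were used as they stand. The labels name the build mm10. Annotation, strand and the treatment of reads matching several genes are not given in the sources used here.

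Ratios were taken without a pseudocount for features at 0.25 RPKM or more in both libraries, with calls at a ratio of 2. Depth was estimated from values below 0.01 RPKM as 1 read on the longest GENCODE M21 transcript, which 240 of 995 such features met in PBS and 296 of 1159 in exosome. Intervals are 95% Clopper-Pearson (log2 ratios) and exact Poisson (levels), and for ratios within a library a normal approximation to the log ratio of estimated reads. No test of groups was run. Positions and 50-base stretches came from GENCODE M21 and windows from RefSeq. Alternatives were scalings, filters, pseudocounts and a ratio of 4. The calculation was tested on simulated data. All genes of the family, of ligands, receptors, factors and brakes could be named, and in other lists those past 4 fold, at most 6, plus Casp1, Casp4, Aim2, Gsdmd, Atg5, Atg7 and Gabarapl2. The genes and lists were chosen with earlier results of these data known. Values of some listed genes are not reported here. Features named by a number (25) were counted but never named. Python 3.11.15, pandas 2.3.3, numpy 2.4.6, scipy 1.17.1 and matplotlib 3.10.9 were used.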

Additional observations from a re-analysis of the deposited data

How the results depend on the processing

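As deposited, 5 GTPase genes were up with a median log2 ratio of 1.15, and over all features 3056 were up and 545 down with a median of 0.53. Setting the median of all features to 0 gave 0 GTPase genes up (median 0.63) and 1634 features up and 1282 down. Removing a trimmed mean gave 0 (median 0.61), 1594 and 1322, with an overall median of -0.0151. Centring within 10 bins of level gave 2 (median 0.63), 1290 and 1304, with an overall median of 0. At a ratio of 4 these counts were 0, 826 and 111. A filter of 1 RPKM gave a GTPase median of 1.41 and 1958 features up, values above 0 in both gave 1.28 and 1436 features down, and a pseudocount of 1 gave 1.04, 1976 features up and an overall median of 0.41. Of 349 planned values recomputed, 107 moved and 0 reversed among called values. Moving every RPKM by 0.005 in either direction, an alternative chosen after seeing the data, left 5 GTPase genes up and 0 down. No paired analysis was possible because each group holds 1 library. Depth limits Gbp3, Gbp5, Gbp6 and Iigp1 most, and the spread between cultures is not known for any gene.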
